A study of Mus musculus with 6 samples.

Results

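Levels of 10 genes were followed in cultured mouse vascular smooth muscle cells: Cd34, Dpt, Clec3b, Ly6a, Pi16 and Penk, known as markers of adventitial fibroblasts, and Upk3b, Nkain4, Gpm6a and Msln, known as markers of mesothelium. They are 10 of the 24970 rows of the deposited table. They were chosen from marker knowledge by someone who already knew how genes differed between the siPfkfb3 and siScrambled libraries, so their differences between these groups are given as a description, with no p-value. All 10 were found in the table by symbol, 6 of the first kind and 4 of the second.

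The siPfkfb3 group (3 samples) and the siScrambled group (3 samples) were primary vascular smooth muscle cells of C57BL/6 male mice, whose age the labels write as 12*6-week-old. The cells were freed with collagenase and grown in α-MEM with 10% FBS, and every sample carries the treatment label Normal Growth Medium. The siPfkfb3 samples received siRNAs against Pfkfb3, short RNA duplexes that direct cleavage of a matching mRNA, and the siScrambled samples received scrambled siRNAs, both at 20 nM with Lipofectamine RNAiMAX for 48 h. The genotype label is WT in siScrambled and names PFKFB3, PFKFB4 and PFKFB5 knockdown in siPfkfb3 replicates 1, 2 and 3, while all 3 titles name siPFKFB3; the titles were followed. Neither the vessel nor the independence of the samples (separate animals or isolations) is stated. The p-values therefore set group differences only against the spread within the groups of these 6 samples, and that spread may be technical.

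The adventitia is the outer layer of an artery. Its fibroblasts make matrix, and a part of them carries surface proteins also used to find progenitor cells, among them CD34 and SCA-1, the product of Ly6a. The mesothelium is the flat epithelium on the surface of body cavities; it is known for keratins, the transcription factor WT1 and uroplakins. A culture grown from digested vessel wall can hold such cells beside smooth muscle cells.

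Across the markers, 8 of the 10 genes were lower in siPfkfb3 without overlap between the groups, Ly6a was lower with overlap, and Penk alone among them was higher. Groups did not overlap for 49.5% of all tested genes either, and since the markers were chosen with this contrast known, nothing is read from the count. Nkain4, Upk3b, Gpm6a, Clec3b and Cd34 stood at 36.3% to 43.9% of their siScrambled mean, Dpt at 53.6%, Pi16 at 64.3% and Ly6a at 86.5%, whereas Penk stood at 227%. Levels are in FPKM, which corrects fragment numbers for the length of the gene and the size of the library. In bulk RNA, fewer cells of a type and less RNA per cell cannot be told apart.

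The sequences upstream of 3 of these genes are shown because Dpt, Cd34 and Upk3b were lower together and represent each kind of marker. The windows are RefSeq promoters of build GRCm38.p6 on the plus strand, 250 bases before to 50 after the annotated start site. They lie at chr1:164796413-164796712 for Dpt, chr1:194938571-194938870 for Cd34 and chr5:136038246-136038545 for Upk3b. Capitals mark matches to any of 5 motifs searched on both strands. These were the TATA box TATAAA, the Sp1-type box GGGCGG, the TEAD-type motif GGAATG, the E-box CAGGTG and the AP-1-type motif TGANTCA.

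Dpt: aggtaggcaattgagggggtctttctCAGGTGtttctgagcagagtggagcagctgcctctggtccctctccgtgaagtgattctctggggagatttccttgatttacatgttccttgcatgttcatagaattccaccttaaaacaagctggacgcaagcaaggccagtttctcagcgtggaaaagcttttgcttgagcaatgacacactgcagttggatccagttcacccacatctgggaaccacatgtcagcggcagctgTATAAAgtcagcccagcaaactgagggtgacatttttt
Cd34: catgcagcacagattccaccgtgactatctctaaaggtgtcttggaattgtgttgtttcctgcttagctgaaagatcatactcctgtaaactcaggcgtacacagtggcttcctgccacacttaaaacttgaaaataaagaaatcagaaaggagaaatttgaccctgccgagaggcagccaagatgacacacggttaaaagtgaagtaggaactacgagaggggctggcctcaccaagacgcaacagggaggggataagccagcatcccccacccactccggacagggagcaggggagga
Upk3b: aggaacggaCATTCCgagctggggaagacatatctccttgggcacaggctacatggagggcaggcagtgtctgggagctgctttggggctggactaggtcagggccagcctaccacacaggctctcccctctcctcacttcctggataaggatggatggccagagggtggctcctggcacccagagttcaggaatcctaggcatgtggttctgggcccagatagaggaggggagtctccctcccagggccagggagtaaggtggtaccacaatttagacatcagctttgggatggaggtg

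The Dpt window held CAGGTG, whose first base is at −224 from the start site, and TATAAA at 13, which is past the start site. The Upk3b window held GGAATG on the other strand at −241, and the Cd34 window held none of the 5. Over the 32851 promoters of the table, TATAAA was in 13.6%, GGGCGG in 35.7%, GGAATG in 14.7%, CAGGTG in 20.2% and TGANTCA in 7.81%. No motif was common to the 3 windows, which follows from the Cd34 window holding none. Windows were matched for 5 of the 10 genes, the others being Gpm6a, with 2, and Pi16. Between them the Gpm6a windows held TATAAA and CAGGTG, as Dpt did, GGAATG, as Upk3b did, and GGGCGG. The Pi16 window held none of the 5.

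Pfkfb3 (ENSMUSG00000026773) was the targeted gene; it makes fructose 2,6-bisphosphate, an activator of glycolysis. It stood at 1.92, 1.65 and 1.77 FPKM in siPfkfb3 and at 4.03, 4.02 and 3.86 FPKM in siScrambled, or 44.9% of the siScrambled mean (limma, log2 difference −0.84 ± 0.07 SE, adjusted p = 2.66e-05; exact two-sided permutation p = 0.1, the smallest that 3 against 3 allow). Read numbers are unknown, and the commonest value among the authors' new-gene rows put the deepest library at 1.24 times the shallowest, a rough estimate. Between 11189 and 11247 rows reached 1 FPKM in a library. Log2 levels correlated across genes at 0.993 to 0.995 within groups and 0.979 to 0.983 between them (genes are not independent replicates).

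The label of the culture was set against defining genes. Some smooth muscle genes were abundant: Acta2, smooth muscle actin, averaged 1700 ± 29.9 FPKM in siPfkfb3 and 1340 ± 39.0 FPKM in siScrambled (SD, n = 3 each). Tagln, transgelin, averaged 679.8 ± 19.0 FPKM in siPfkfb3 and 717 ± 10.1 FPKM in siScrambled. Other genes of the smooth muscle list were much lower. Myh11 averaged 15.6 ± 0.359 FPKM in siPfkfb3 and 16.6 ± 0.108 FPKM in siScrambled. Myocd was at or under 1.83 FPKM and Des at or under 1.37 FPKM in every library. Some fibroblast genes were abundant too. Dcn, a matrix proteoglycan, averaged 339 ± 3.51 FPKM in siPfkfb3 and 356 ± 19.7 FPKM in siScrambled, and Pdgfra, a growth factor receptor, averaged 28.2 ± 0.238 FPKM in siPfkfb3 and 25.5 ± 0.646 FPKM in siScrambled.

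The mesothelial list was mixed. Aldh1a2 stood at 45.7 to 48.4 FPKM in siPfkfb3 and at 51.4 to 56.5 FPKM in siScrambled, Pdpn at 61.7 to 66.4 FPKM in siPfkfb3 and at 57.1 to 63.9 FPKM in siScrambled, and Upk1b reached 1.61 FPKM. The other defining genes were low: Wt1 was at or under 0.0527 FPKM in every library, Krt8 at or under 0.0201 FPKM, Krt18 at or under 0.116 FPKM and Krt19 at or under 0.635 FPKM, and Muc16 was listed at 0 in all 6 libraries. Msln itself, the gene of mesothelin, reached 0.135 FPKM at most. Upk3b, Nkain4 and Gpm6a are therefore named below by their symbols and not taken to show mesothelial cells. Of the 9 genes listed for endothelium, which also carries CD34, Pecam1 reached 0.106 FPKM and Cdh5 0.0627 FPKM, whereas Tek reached 0.974 FPKM, Egfl7 1.19 FPKM and Erg 14 FPKM.

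**Figure D1:**
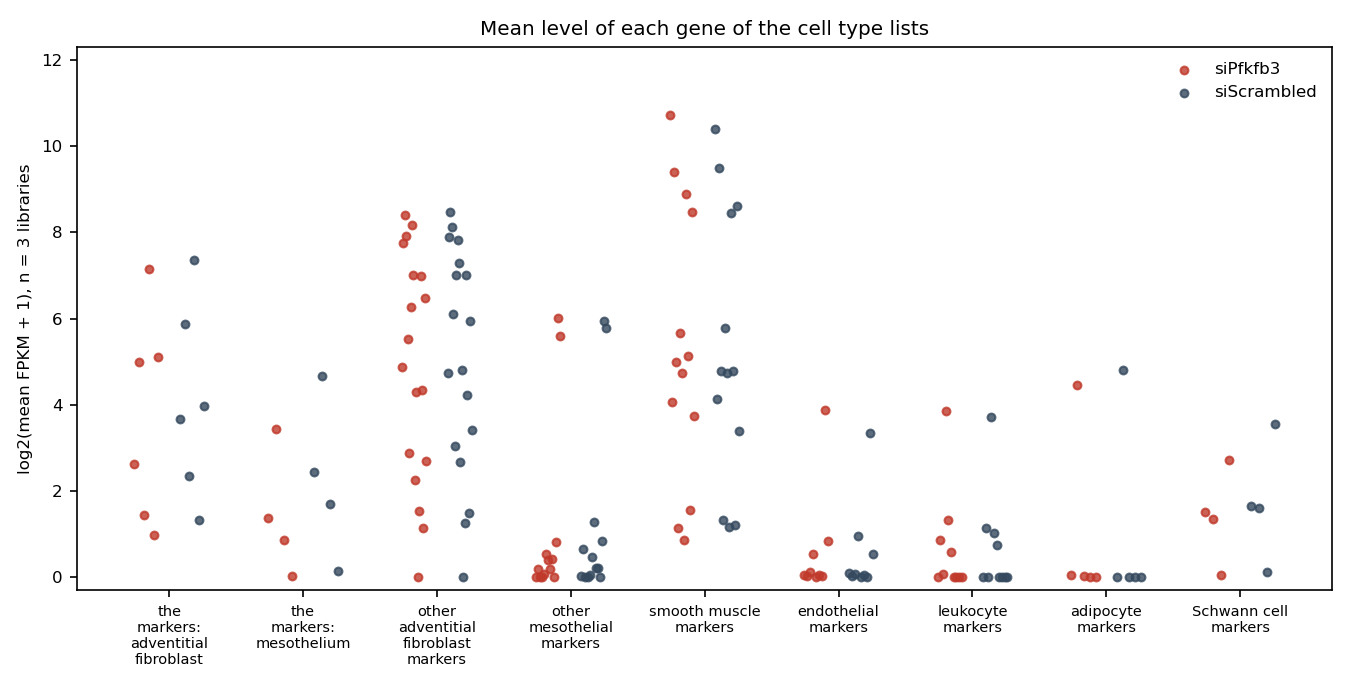
Mean level of each gene of the cell type lists, as log2(mean FPKM + 1) on the vertical axis, with siPfkfb3 points left of siScrambled points in each list (each point 1 gene, mean of 3 libraries). Smooth muscle and fibroblast genes reach the highest levels, and of the other mesothelial markers Pdpn and Aldh1a2 stand far above the rest.

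Among the surface proteins, Cd34 (chromosome 1, 194938819 to 194961279, plus strand, ENSMUSG00000016494; GRCm38) encodes a sialomucin of progenitor cells, endothelium and stromal fibroblasts. It stood at 5.15, 5.02 and 5.35 FPKM in siPfkfb3 and at 11.6, 12.1 and 11.6 FPKM in siScrambled. All 3 siPfkfb3 libraries lay below all 3 siScrambled libraries, and the spread inside a group was small beside the gap. On the log2(FPKM + 1) scale of the fit, the difference was −1.05 ± 0.05 (SE). Cd34 exons overlap Gm16897 on the opposite strand, and whether counting used strand is not stated.

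Ly6a (chromosome 15, 74994877 to 74998031, minus strand, ENSMUSG00000075602) encodes SCA-1, a lipid-anchored surface protein of mouse progenitor cells and fibroblasts, and is known as an interferon-inducible gene. It was the most abundant of the 10, with 146, 125 and 152 FPKM in siPfkfb3, against 177, 148 and 164 FPKM in siScrambled. The highest siPfkfb3 value lay above the lowest siScrambled value. The difference was −0.21 ± 0.09 (SE) on the log2(FPKM + 1) scale, the smallest of the 9 genes that could be fitted. It was −0.13 without siPfkfb3 replicate 2. Ly6a belongs to a cluster of similar genes on chromosome 15, and reads may be shared among its copies.

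Of the secreted matrix and blood proteins, Dpt (chromosome 1, 164796644 to 164824266, plus strand, ENSMUSG00000026574) encodes dermatopontin, which binds collagen and decorin. It stood at 33.5, 28.9 and 29.9 FPKM in siPfkfb3 and at 58.9, 57.3 and 55.9 FPKM in siScrambled. The groups were far apart, and the difference was −0.88 ± 0.06 (SE). Clec3b (chromosome 9, 123150946 to 123157432, plus strand, ENSMUSG00000025784) encodes tetranectin, a C-type lectin-like protein that binds plasminogen. It stood at 1.27, 1.62 and 2.23 FPKM in siPfkfb3 and at 3.67, 4.53 and 4.06 FPKM in siScrambled. Its siPfkfb3 libraries varied among themselves more than those of Cd34 or Dpt, yet none reached a siScrambled library; the difference was −0.92 ± 0.13 (SE).

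Pi16 (chromosome 17, 29317680 to 29330593, plus strand, ENSMUSG00000024011) encodes peptidase inhibitor 16, a mark of adventitial fibroblasts found in many mouse organs. It stood at 0.829, 0.911 and 1.14 FPKM in siPfkfb3 and at 1.58, 1.5 and 1.4 FPKM in siScrambled, low levels in groups that did not overlap. The difference was −0.35 ± 0.09 (SE) with the pseudocount of 1 FPKM and −0.60 with 0.1 FPKM. With a mean of 1.23 FPKM over the 6 libraries, Pi16 lay just inside the minimum of 1 FPKM set for the fit. Its siPfkfb3 mean alone was 0.960 FPKM, so it passed through its siScrambled level. Its exons overlap AC162182.1 on the opposite strand.

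Penk (chromosome 4, 4133531 to 4138819, minus strand, ENSMUSG00000045573) encodes proenkephalin, the precursor of the opioid peptides called enkephalins, and is made by fibroblasts as well as neurons. It went against the others, with 33.3, 33.1 and 33.4 FPKM in siPfkfb3, against 13.3, 12.4 and 18.3 FPKM in siScrambled. The siPfkfb3 libraries were nearly equal, while siScrambled replicate 3 stood above the other siScrambled libraries. The difference was 1.15 ± 0.13 (SE). Of its relatives among opioid precursors, Pdyn was listed at 0 in all libraries, Pnoc in all but siScrambled replicate 3, and Pomc reached 0.486 FPKM. Penk exons overlap A830012C17Rik on the opposite strand.

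**Figure D2:**
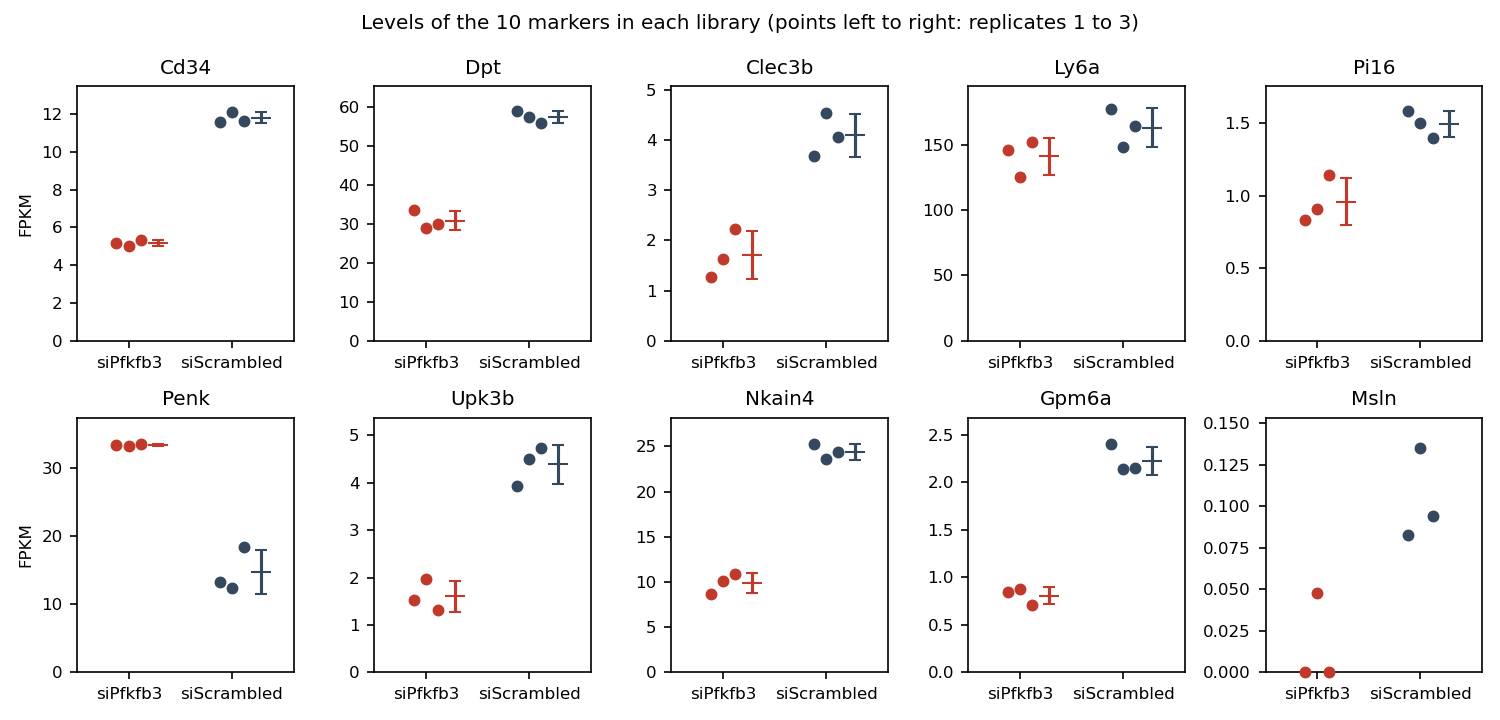
FPKM of the 10 markers in each library, siPfkfb3 left and siScrambled right; points are replicates 1 to 3 from left to right, and the bar beside them is the mean with its SD (not drawn for Msln, which has values listed at 0). Penk is higher in siPfkfb3 (33.1 to 33.4 against 12.4 to 18.3 FPKM), Ly6a overlaps between the groups, and the other 8 are lower without overlap, beside 49.5% of all tested genes whose groups do not overlap.

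Among the genes listed for mesothelium, Upk3b (chromosome 5, 136038496 to 136046487, plus strand, ENSMUSG00000042985) encodes uroplakin 3B, a membrane protein of mesothelium and of the urinary tract lining. It stood at 1.53, 1.96 and 1.32 FPKM in siPfkfb3 and at 3.94, 4.51 and 4.73 FPKM in siScrambled. Every siPfkfb3 library was below every siScrambled library, and the difference was −1.05 ± 0.10 (SE). Its relatives Upk3a and Upk3bl were listed at 0 in all 6 libraries.

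Nkain4 (chromosome 2, 180934772 to 180954699, minus strand, ENSMUSG00000027574) belongs to a small family of membrane proteins that interact with the sodium pump. It was the most abundant of the 4, with 8.66, 10.1 and 10.9 FPKM in siPfkfb3, against 25.3, 23.6 and 24.4 FPKM in siScrambled. The difference, −1.23 ± 0.07 (SE), was the largest in size among the 9 fitted markers on the log2(FPKM + 1) scale; as a share of the siScrambled mean, Gpm6a (36.3%) and Upk3b (36.6%) were lower than Nkain4 (40.5%). Its relative Nkain1 averaged 7.99 ± 0.684 FPKM in siPfkfb3 and 9.16 ± 0.703 FPKM in siScrambled (SD, n = 3 each), a log2 difference of −0.18 ± 0.08 (SE) that did not pass (limma, adjusted p = 0.0949). Nkain4 exons overlap Gm14341 on the opposite strand.

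Gpm6a (chromosome 8, 54954843 to 55060871, plus strand, ENSMUSG00000031517) encodes a membrane glycoprotein best known from neurons. It stood at 0.840, 0.873 and 0.709 FPKM in siPfkfb3 and at 2.40, 2.14 and 2.15 FPKM in siScrambled, with a difference of −0.84 ± 0.09 (SE), or −1.36 with a pseudocount of 0.1 FPKM. Its siPfkfb3 mean of 0.807 FPKM was under the minimum, so Gpm6a, like Pi16, passed through its siScrambled level. Its relative Gpm6b averaged 9.25 ± 0.431 FPKM in siPfkfb3 and 10.7 ± 0.741 FPKM in siScrambled (SD, n = 3 each). The log2 difference of Gpm6b was −0.19 ± 0.06 SE (limma, adjusted p = 0.0405), and its call ended under 10 of the 15 other settings (adjusted p of 0.0506 to 0.128).

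Msln (chromosome 17, 25748613 to 25754378, minus strand, ENSMUSG00000063011) encodes mesothelin. It was listed at 0, 0.0479 and 0 FPKM in siPfkfb3 and at 0.0828, 0.135 and 0.0938 FPKM in siScrambled. These values are far under the minimum of 1 FPKM, and an exact 0 can be a failed estimate, so no fold is given. The related gene Mslnl was listed at 0 in all libraries.

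The fit over the 11240 genes averaging 1 FPKM or more put these values against the rest of the table. It tested log2(FPKM + 1) with limma and called a gene at a Benjamini-Hochberg adjusted p under 0.05. Of the 10 markers 9 were fitted, 7 were called lower, against 20.5% of all genes, and 1 was called higher, against 15.8%. In either direction 8 were called, against 36.3% of all genes. For 8 of the 9 the groups did not overlap, as for 49.5% of all genes. Because the markers were chosen with this contrast known, nothing is read from these counts. The differences of Nkain4, Upk3b and Cd34 had 13, 30 and 31 genes below them, those of Clec3b, Dpt and Gpm6a 58, 74 and 88, and that of Penk had 34 genes above it. Pi16 had 976 and Ly6a 2106 genes below. The median of all genes was −0.02.

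**Figure D3:**
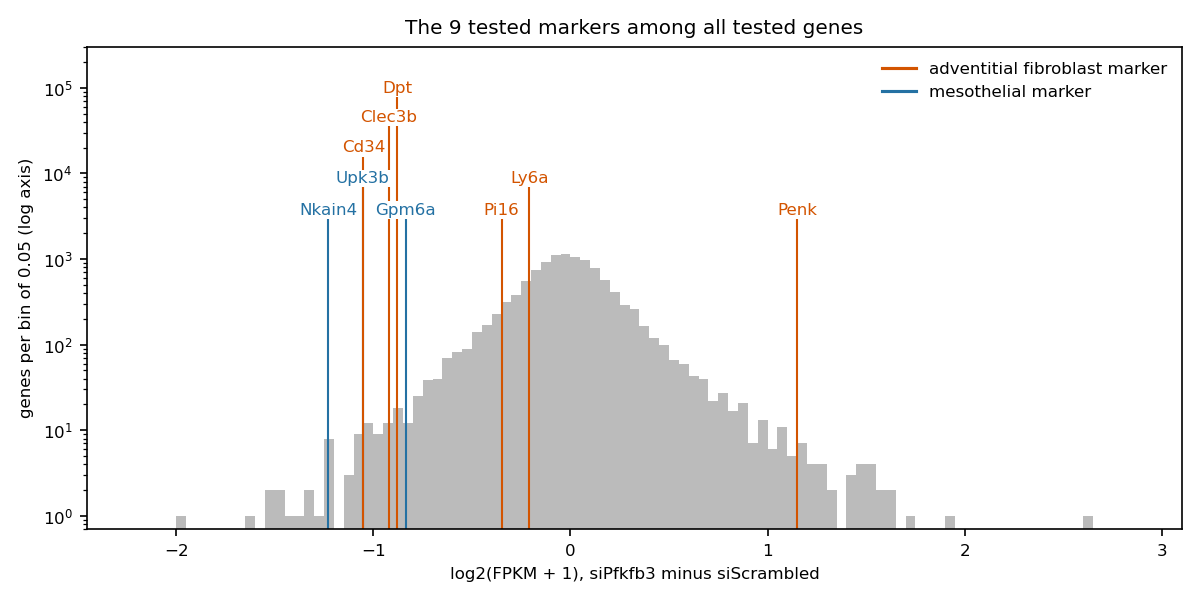
Histogram of the log2(FPKM + 1) difference, siPfkfb3 minus siScrambled, of all 11240 tested genes (grey, logarithmic count axis), with a line at each of the 9 fitted markers. Nkain4 at −1.23 lies farthest to the left, Ly6a at −0.21 lies within the bulk of genes, and Penk at 1.15 lies in the right tail; the heights of the lines only separate the names.

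The order of levels among the markers, compared per gene length in FPKM, differed between the groups. In siPfkfb3 it ran Ly6a, Penk, Dpt, Nkain4, Cd34, Clec3b, Upk3b, Pi16, Gpm6a and Msln. The ranges of Penk and Dpt overlapped there, as did those of Clec3b and Upk3b and those of Pi16 and Gpm6a. In siScrambled it ran Ly6a, Dpt, Nkain4, Penk, Cd34, Upk3b, Clec3b, Gpm6a, Pi16 and Msln, and only Upk3b and Clec3b overlapped among neighbours. Penk thus ranked 2 in siPfkfb3, against 4 in siScrambled.

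The remaining adventitial fibroblast markers, 18 genes listed apart from the 6, were measured in the same fit. Of the 17 with enough signal, 10 fell, 4 rose and 3 did not pass, against 20.5% of all genes called lower and 15.8% called higher, and their median log2 difference was −0.16 beside −0.02 for all genes. Without any 1 library, 8 to 10 fell and 2 or 3 rose. The 18 genes were listed with earlier results of these data known, so nothing is read from these counts or the median. Cd248, endosialin of stromal cells, fell to 76.4 ± 4.37 FPKM in siPfkfb3, against 128 ± 3.33 FPKM in siScrambled (log2 difference −0.74 ± 0.04 SE, adjusted p = 3.00e-06). Abca8a, a lipid transporter, fell by 0.71 (adjusted p = 1.47e-05) and Ly6c1, a relative of Ly6a, by 0.59 (adjusted p = 1.07e-05). Cygb, cytoglobin, rose to 88.8 ± 1.45 FPKM, against 60.4 ± 1.97 FPKM in siScrambled (log2 difference 0.55 ± 0.04 SE, adjusted p = 4.92e-06). None of the 17 differed by as much as Cd34, Dpt, Clec3b or Penk, while Cd248, Abca8a and Ly6c1 differed by more than Pi16 or Ly6a. Since those markers were chosen with this contrast known, nothing is read from the comparison. The summed level of the 18 was 1624 to 1640 FPKM in siPfkfb3 and 1700 to 1758 FPKM in siScrambled. Dpp4, which marks PI16-bearing fibroblasts in the mouse, was listed at 0 in 5 libraries and at 0.0159 FPKM in siPfkfb3 replicate 1.

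Of 13 other mesothelial markers, 2 had enough signal: Aldh1a2, a retinoic acid synthase, fell by 0.20 (limma, adjusted p = 0.00664), and Pdpn, podoplanin, did not pass (log2 difference 0.06, adjusted p = 0.405). Fibroblasts also make podoplanin. The other 11 were under the minimum. Among them Upk1b and Lrrn4, named here after their values were seen and so given with no test, were lower in siPfkfb3. Upk1b, a uroplakin, stood at 0.217, 0.0876 and 0.643 FPKM in siPfkfb3 and at 1.34, 1.61 and 1.40 FPKM in siScrambled. Lrrn4, a leucine-rich repeat protein, stood at 0.0624, 0.0956 and 0.255 FPKM in siPfkfb3 and at 0.5, 0.51 and 0.75 FPKM in siScrambled. Rspo1, a secreted Wnt pathway activator, went the other way, with 0.225, 0.399 and 0.385 FPKM in siPfkfb3 and 0.151, 0.209 and 0.149 FPKM in siScrambled. In these 3 genes the groups did not overlap, while those of the other 8, Wt1, Krt7, Krt8, Krt18, Krt19, Bnc1, Cldn15 and Muc16, overlapped. Groups did not overlap for 49.5% of all tested genes, a set that leaves out these 11 as too low. No such share was counted for genes under the minimum, so nothing is read from this count.

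**Figure D4:**
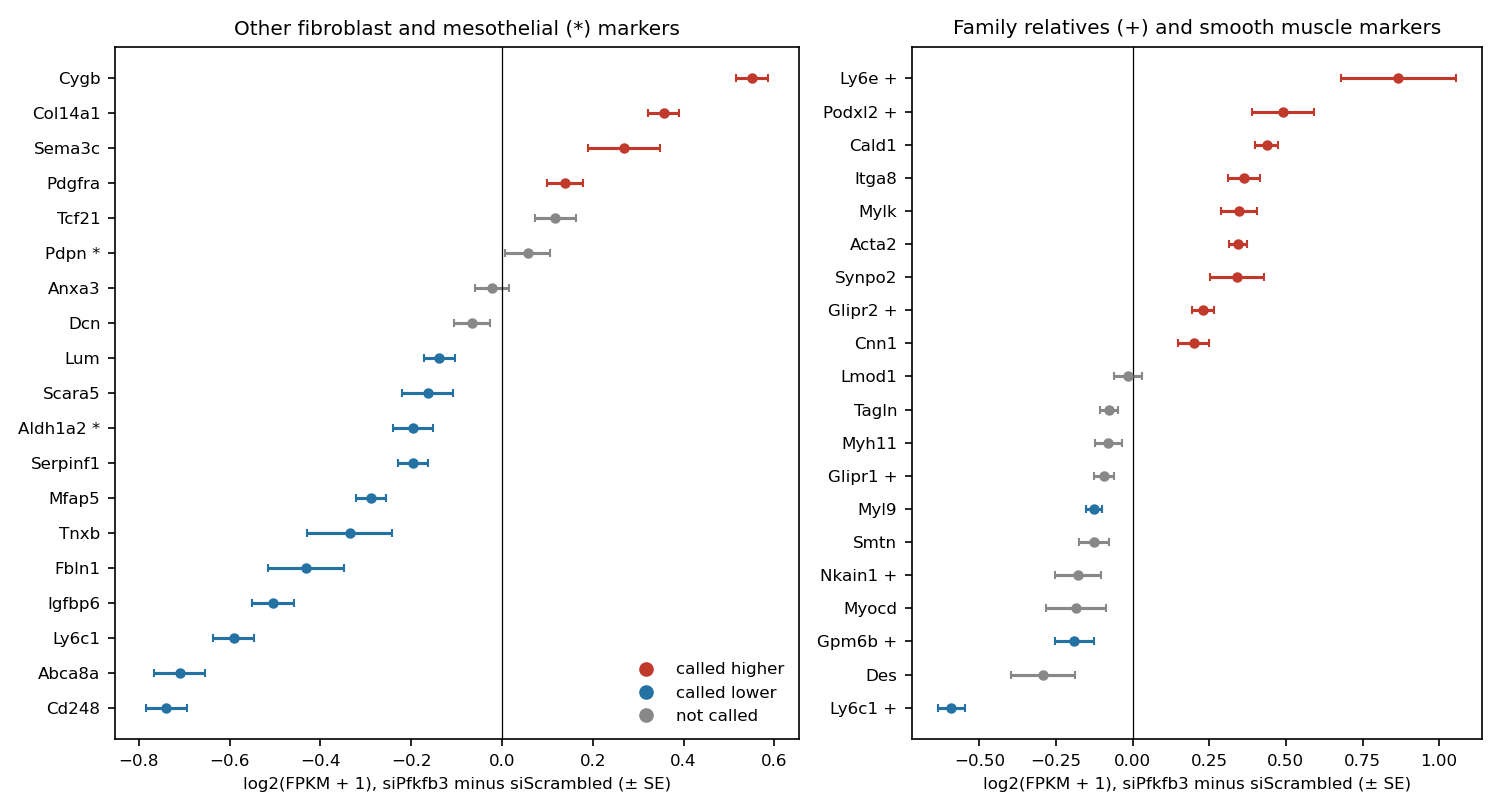
Log2(FPKM + 1) difference, siPfkfb3 minus siScrambled, with its SE, of the tested genes of 4 lists that leave out the 10 markers and 1 relative not reported here: other fibroblast markers and other mesothelial ones (asterisk) on the left, family relatives (plus sign) and smooth muscle genes on the right. Colours give the limma call. Of 17 fibroblast markers 10 are lower, beside 20.5% of all tested genes, and 4 are higher, beside 15.8%. Cd248 at −0.74 is the lowest.

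Ly6a was read beside its relatives and the interferon-induced genes. Ly6c1 stood at 42.6, 46.4 and 45.3 FPKM in siPfkfb3 and at 64.9, 69.2 and 69.6 FPKM in siScrambled. Ly6e, also interferon-inducible, stood at 144, 138 and 172 FPKM in siPfkfb3 and at 105, 68.8 and 76.9 FPKM in siScrambled, and rose by 0.87 ± 0.19 SE (limma, adjusted p = 0.0229). That call of Ly6e ended under the replicate block (adjusted p = 0.0640) and without any 1 of siPfkfb3 replicates 1, 2 or 3 or siScrambled replicate 3 (adjusted p of 0.0511 to 0.0735). The relatives of 1 gene cluster thus went opposite ways, with Ly6a between them.

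All 11 interferon-induced genes were called higher, beside 15.8% of all genes. Their list was chosen with earlier results known, so nothing is read from the count. The call of Ifit3 ended under the replicate block (limma, adjusted p = 0.0707), and Psmb8 passed narrowly (limma, adjusted p = 0.0495). The mean log2(FPKM + 1) of the 11 genes was 5.68, 5.55 and 6.05 in siPfkfb3 replicates 1, 2 and 3. It was 4.66, 4.05 and 4.43 in siScrambled replicates 1, 2 and 3. Inside each group Ly6a put the libraries in the same order as this mean: replicate 3, then 1, then 2 in siPfkfb3, and replicate 1, then 3, then 2 in siScrambled. Ly6e had that order too, as did 8 of the 11 genes, while Ly6c1 did not. Timm10b and Dnaaf2, the 2 genes with profiles most similar to Ly6a, had it as well, and neither is on the interferon list. How many of all genes share this order was not counted. The part of the interferon-induced genes in the level of Ly6a was not tested.

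**Figure D5:**
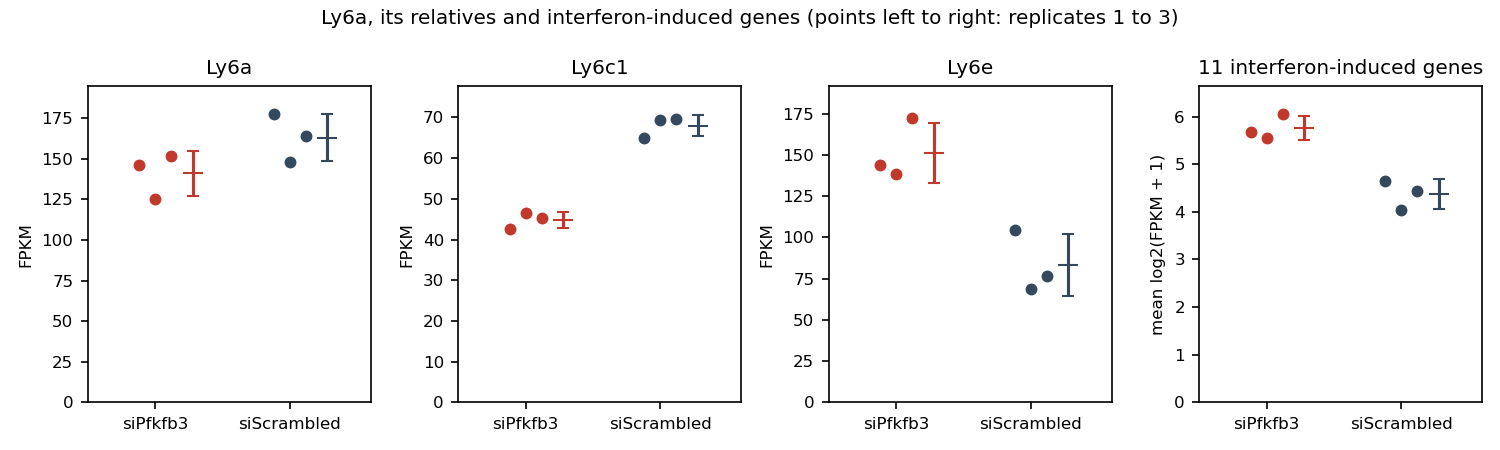
Levels in each library of Ly6a, Ly6c1 and Ly6e (FPKM) and the mean log2(FPKM + 1) of 11 interferon-induced genes, siPfkfb3 left and siScrambled right; points are replicates 1 to 3 from left to right, and bars are the mean with its SD. Ly6a overlaps between the groups, Ly6c1 is lower and Ly6e higher in siPfkfb3, and in Ly6a, Ly6e and the interferon panel replicate 2 is the lowest library of each group.

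Other lists moved in the same libraries. Of 13 smooth muscle genes 6 rose, 1 fell and 6 did not pass, beside 15.8% of all genes called higher and 20.5% called lower, and their median log2 difference was −0.02, as for all genes. Their summed level was 3343 to 3409 FPKM in siPfkfb3 and 2921 to 2996 FPKM in siScrambled. The abundant Acta2 (given above) was among those that rose, as was Cald1, caldesmon, with 474 ± 14.3 FPKM in siPfkfb3 and 350 ± 16.0 FPKM in siScrambled (SD, n = 3 each). All 6 proliferation genes fell, beside 20.5% of all genes called lower. Their summed levels were 63.0 to 65.5 FPKM in siPfkfb3 and 106 to 113 FPKM in siScrambled. The smooth muscle and proliferation lists were chosen with earlier results known, so nothing is read from these counts. The markers themselves summed to 195 to 224 FPKM in siPfkfb3 and 236 to 266 FPKM in siScrambled for the 6 of fibroblasts, most of it Ly6a. For the 4 listed for mesothelium the sums were 11 to 13 FPKM in siPfkfb3 and 30.3 to 31.7 FPKM in siScrambled. The part of these lists in the markers' differences was not tested.

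Genes with the most similar profiles were sought by the root mean square difference of log2(FPKM + 1), each gene centred on its own mean, over the 6 libraries. Only fitted genes were compared, and rows with no symbol or a clone-type name were left out. Since the libraries form 2 groups, this likeness rests mainly on the group difference. The nearest to Cd34 was Dcaf7, a substrate receptor of ubiquitin ligases, at 0.03 on that scale, followed by Zbtb18, a transcriptional repressor, at 0.05. The nearest to Dpt was Pfkfb3 itself, at 0.03, and then Cxadr, a junction protein and virus receptor, at 0.04. Nkain4 lay nearest to Ptgs1, a cyclooxygenase, and Efemp1, a fibulin of the matrix, at 0.03 and 0.06, and Gpm6a nearest to Rarres2, the gene of chemerin, and Tgfbi, a matrix protein, at 0.03 and 0.04. Among the genes compared, Clec3b, Upk3b and Penk had none nearer than 0.11, 0.10 and 0.10.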

How the data were processed

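RNA-seq of 6 samples was deposited by the authors as 1 table of FPKM (a level corrected for gene length and sequencing depth), per the file headers. The submitters' processing notes name HISAT2 and the build GRCm38 (mm10). Which counter made the values, with which annotation and whether by strand, is not given in the sources used here. FPKM holds no read counts, so no counting intervals are given. Symbols were matched for 22022 of 22036 Ensembl IDs. Groups and replicate numbers came from the sample titles.

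The 11240 genes averaging 1 FPKM or more were tested on log2(FPKM + 1), pseudocount 1, with limma 3.58.1 in R 4.3.3 (intensity trend, robust, two-sided, Benjamini-Hochberg over all tested genes, threshold 0.05). This scale understates changes of low genes. The step was tested on simulated data. The 10 genes and all lists were chosen with earlier results of these data known. The genes named besides the 10 follow a rule: Pfkfb3, in each list up to 4 called genes with the largest difference (or, with none called, the 2 with the highest mean), family relatives with a mean of at least 1 FPKM, and the 2 most similar profiles of each marker. Not all are printed, 1 of them is not reported here, and genes outside it serve only as markers of a cell type. Positions and exon overlaps are from GENCODE M21 on GRCm38. Alternatives were pseudocounts of 0.1 and 0.5, no minimum or a mean of at least 5 FPKM, TPM, median-ratio and quantile scaling, the replicate number as a block, plain limma (neither trend nor robust), and leaving out each sample.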

Additional observations from a re-analysis of the deposited data

How the results depend on the processing

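None of the 9 fitted markers changed direction in any of the 15 other settings. Their log2 differences ranged from −1.17 to −1.03 for Cd34, −0.94 to −0.84 for Dpt, −1.24 to −0.80 for Clec3b, −0.28 to −0.13 for Ly6a, −0.60 to −0.30 for Pi16, 1.05 to 1.31 for Penk, −1.41 to −0.97 for Upk3b, −1.30 to −1.15 for Nkain4 and −1.36 to −0.80 for Gpm6a. Pi16 was not called without siPfkfb3 replicate 1 or without siScrambled replicate 1. Ly6a was called only with the replicate block, which called 9 of 9 markers and 3907 genes in all. The numbers were not shown to pair the samples: deviations of same-numbered samples correlated at −0.11, 0.06 and 0.06, and not every sample correlated best with its own number, so the block is not read as a paired result.

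The number of called genes was 3274 to 4074 in the other settings. Leaving out 1 sample gave 10 to 12 called fibroblast markers, with the 10 falling and 4 rising becoming 8 to 10 and 2 to 3. Without a minimum, 3 of 12 other mesothelial markers were called, in place of 1 of 2, beside 3696 of all 18366 genes in that setting. Upk1b and Lrrn4 entered the fit only there. Since they were named after their values were seen, nothing is read from this count. The call of Pfkfb3 held in every setting that kept it (log2 difference −1.12 to −0.80; it falls under a minimum of 5 FPKM). Over 46 other named genes, 645 of 677 comparisons kept direction and side of the threshold, 25 lost the call, 7 gained it and 0 reversed. The read depth behind the low values is unknown. A pseudocount of 0.1 FPKM gave −0.60 for Pi16 and −1.36 for Gpm6a.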

Other observations

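Markers of other cell types in the vessel wall surroundings also differed between the groups. S100b, a calcium-binding protein of Schwann cells, fell to 5.58 ± 0.416 FPKM in siPfkfb3, against 10.8 ± 0.941 FPKM in siScrambled (SD, n = 3 each; limma, log2 difference −0.84 ± 0.08 SE, adjusted p = 3.27e-05). Fabp4, a fatty acid carrier of adipocytes and endothelium, fell to 20.9 ± 1.23 FPKM in siPfkfb3, against 27.1 ± 0.364 FPKM in siScrambled (log2 difference −0.36 ± 0.05 SE, adjusted p = 0.000446). The adipocyte genes Lep and Cidec were listed at 0 in all libraries, and Adipoq and Plin1 reached 0.0801 and 0.0412 FPKM.

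Erg, a transcription factor of endothelium, rose to 13.8 ± 0.225 FPKM in siPfkfb3, against 9.19 ± 0.233 FPKM in siScrambled (SD, n = 3 each; log2 difference 0.54 ± 0.05 SE, limma, adjusted p = 3.27e-05), while Pecam1, Cdh5, Tie1 and Emcn were at or under 0.106 FPKM in every library. Tek, an endothelial receptor under the minimum, stood at 0.431, 0.567 and 0.360 FPKM in siPfkfb3 and at 0.974, 0.859 and 0.968 FPKM in siScrambled, and Egfl7 at 0.681, 1.19 and 0.498 FPKM in siPfkfb3 and at 0.281, 0.613 and 0.451 FPKM in siScrambled. Podxl2, a relative of Cd34, rose by 0.49 ± 0.10 SE (adjusted p = 0.00458), with 5.03, 5.48 and 5.80 FPKM in siPfkfb3 and 3.23, 3.21 and 4.38 FPKM in siScrambled. Podxl, the other relative, was at or under 0.194 FPKM. Of 10 leukocyte genes 6 never exceeded 0.1 FPKM and 3 could be tested, none of which passed; Lyz2, a lysozyme of macrophages, stood at 13.4 ± 0.312 FPKM in siPfkfb3 and 12.2 ± 0.0970 FPKM in siScrambled (adjusted p = 0.0563). Lyz2 passed under TPM, median-ratio and quantile scaling (adjusted p = 0.0375, 0.0304 and 0.0416).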
